A study of Mus musculus with 35 samples.

Results

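The 9 genes described here encode G protein-coupled receptors, out of 55421 genes counted in interscapular brown adipose tissue (iBAT) of mice. Except for the orphan receptor Gpr3, they bind metabolites or local lipid and nucleoside signals. The 9 genes are Hcar1, Hcar2, Ffar4, Ffar2, Gpr3, Sucnr1, Adora1, Adora2a and Ptger3. The set was chosen on measured values, because Hcar1 was lower and Ffar4 was higher in the cold, so these 2 genes are described against room temperature without a test. The other 7 receptors were tested against room temperature, and all 9 were compared between durations of cold, which did not use the control mice. The cold values of Hcar1 and Ffar4 were also part of the choice, so their tests between durations are not free of it. iBAT came from male C57BL/6J mice aged 9-10 weeks, with 5 control mice kept at a colony temperature of 24 °C and 5 mice for each of 6 durations at 6 °C, the shortest 6 hours and the others whole days from 1 to 5. The labels name no transgene and no drug for any of these mice. The cold-exposed mice were held singly in static cages with no material for a nest, so cold and housing cannot be told apart. Each mouse gave 1 library, and all 6 comparisons with room temperature share the same 5 control mice.

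Fat cells release fatty acids when noradrenaline raises cyclic AMP, and receptors on the same cells sense the products of this metabolism. Hcar1 binds lactate, Hcar2 binds the ketone body beta-hydroxybutyrate and niacin, and Adora1 and Ptger3 bind adenosine and prostaglandin E2. All of these couple mainly to Gi proteins, which lower cyclic AMP and restrain lipolysis. Adora2a also binds adenosine but couples to Gs, which raises cyclic AMP, and Gpr3 is an orphan receptor that signals through Gs without a known need for a ligand. Ffar4 binds long-chain fatty acids, Ffar2 binds the short-chain fatty acids acetate and propionate, and Sucnr1 binds succinate.

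The libraries held 3846016 to 6047247 counts, with a median of 4902083, and mitochondrial genes together with Gm42418 took 46.4 to 56.0% of them. Levels are given as CPM, the reads of a gene relative to the library total, scaled by trimmed mean of M-values (TMM) factors over the 35 libraries, and 1 read was worth 0.165 to 0.260 CPM. All 8 brown adipocyte markers had reads in each group, and their summed level was 12187 to 15819 CPM at room temperature and 18407 to 24916 CPM after 6 hours. The markers did not move together after 6 hours, when Ucp1 (log2 fold change 1.90), Dio2 (5.41) and Elovl3 (4.62) rose, Adipoq fell (−0.40, adjusted p = 0.00164), and Cidea, Plin1, Fabp4 and Pparg did not pass the test. In whole tissue, fewer cells of a type and less RNA per cell cannot be told apart. Scaling by library size alone moved the median log2 fold change of all genes from −0.03 to −0.21 after 6 hours and from −0.02 to −0.25 after 5 days. It also moved the share of called genes that were higher from 50.8 to 28.5% after 6 hours and from 52.3 to 26.2% after 5 days. No receptor with enough reads for the edgeR test changed direction in any comparison under another scaling.

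The promoters of Hcar1 and Ffar4, the receptors on which the set was chosen, and of Gpr3, which had no read in the controls, are shown first. Each is the 250 bases upstream of the RefSeq start on GRCm38.p6, written 5′ to 3′ on the strand of the gene. They lie at chr5:123880004-123880253 on the minus strand (Hcar1), chr19:38096829-38097078 on the plus strand (Ffar4) and chr4:133212537-133212786 on the minus strand (Gpr3). Capitals mark CGTCA, the reverse complement of TGACG, the core of the cyclic AMP response element TGACGTCA.
Hcar1: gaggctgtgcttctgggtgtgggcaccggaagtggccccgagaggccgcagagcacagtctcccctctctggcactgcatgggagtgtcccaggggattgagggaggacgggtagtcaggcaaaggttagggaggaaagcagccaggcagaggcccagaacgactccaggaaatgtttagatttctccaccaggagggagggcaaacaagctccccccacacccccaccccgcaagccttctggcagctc
Ffar4: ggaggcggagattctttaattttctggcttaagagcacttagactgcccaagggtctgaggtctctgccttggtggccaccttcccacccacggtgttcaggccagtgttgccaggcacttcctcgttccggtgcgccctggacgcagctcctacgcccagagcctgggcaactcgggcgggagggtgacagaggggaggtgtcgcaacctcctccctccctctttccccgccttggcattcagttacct
Gpr3: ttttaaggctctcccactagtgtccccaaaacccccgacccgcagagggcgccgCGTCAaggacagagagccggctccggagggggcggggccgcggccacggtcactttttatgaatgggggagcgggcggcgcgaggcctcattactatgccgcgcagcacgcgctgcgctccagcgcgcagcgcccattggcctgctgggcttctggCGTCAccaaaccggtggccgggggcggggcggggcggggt
RefSeq promoter windows were found for 7 of the 9 receptors, 11 windows in all, and none was found for Hcar2 and Adora2a. On either strand, TGACGTCA was in 0 of the 11 windows and in 1.55% of all 32851 windows. TGACG, which is part of TGACGTCA, was in 17.8% of all windows and, among the receptors, in that of Gpr3 only, with first bases at −196 and −40 from the start. The nuclear receptor core AGGTCA was in 14.02% of all windows and in 3 of the 4 windows of Ffar2, where the matches at −89 and −142 in a pair of overlapping windows are the same bases. GC content was 62.4% for Hcar1, 61.2% for Ffar4 and 70.8% for Gpr3, against a median of 52.4% over all windows. These motifs were picked after the promoters had been seen, and a match is a description of letters only.

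**Figure D1:**
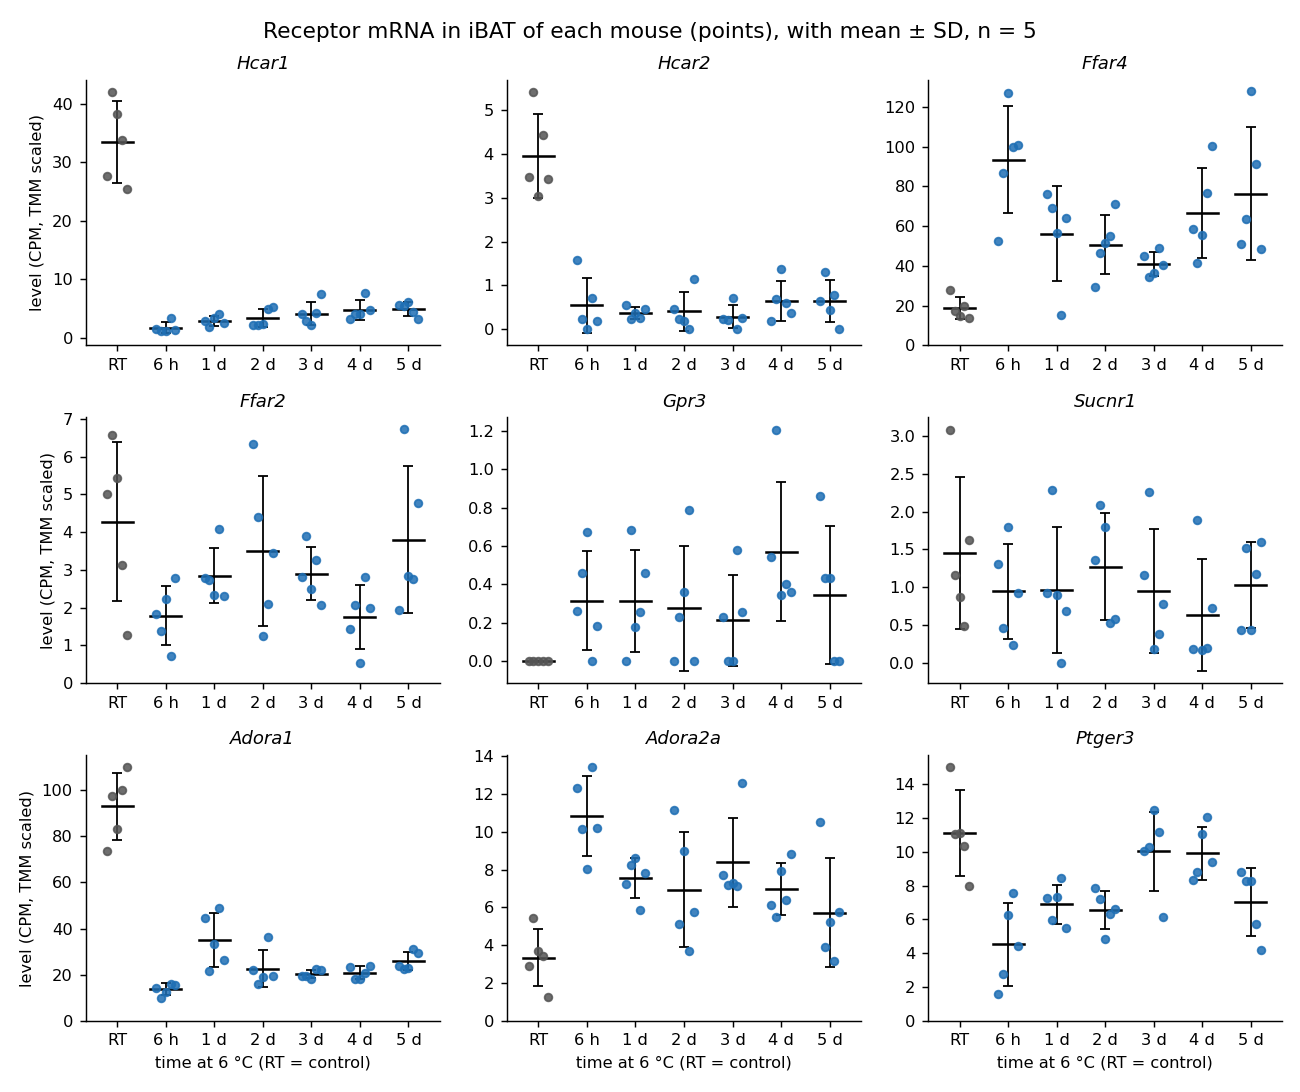
Level of each of the 9 receptors in CPM (y axis, TMM scaled) in each mouse (points, grey at room temperature, blue in the cold) by time at 6 °C (x axis), with the mean and SD of the 5 mice as bars. Hcar1, Hcar2 and Adora1 at every duration lay below all control mice, while Gpr3 had 0 reads in the controls. The share of all genes that separate in this way was not computed.

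The lactate receptor Hcar1 had the largest log2 fold change after 6 hours among the receptors with reads in both groups. The gene lies at chr5:123876736-123880020 on the minus strand of GRCm38. At room temperature its level in the 5 mice was 27.6, 42.0, 38.3, 33.8 and 25.3 CPM, from 140 to 217 reads. After 6 hours it was 1.57, 1.16, 1.12, 3.30 and 1.29 CPM, from 5 to 14 reads. Every cold mouse lay below every control, with no overlap at any duration. The share of all genes that separate in this way was not computed, so this and the separations below are description only. The mean was 33.4 ± 7.02 CPM (SD, n = 5) at room temperature and 1.69 ± 0.919 CPM (SD, n = 5) after 6 hours, which is 5.05% of the control mean. The log2 fold change was −4.32 ± 0.24 (SE) after 6 hours, −3.51 at 1 day and −3.41 at 2 days. It stood at −3.04 after 3 days, −2.83 after 4 and −2.77 ± 0.19 after 5. After 5 days the 5 mice held 5.58, 5.43, 6.10, 4.32 and 3.19 CPM, a mean of 4.92 ± 1.17 CPM (SD, n = 5) or 14.7% of the control mean. Between 6 hours and 5 days Hcar1 rose by 1.55 ± 0.36 on the log2 scale (edgeR quasi-likelihood test, adjusted p = 0.00109). The cold values of Hcar1 were part of the choice of the set, so its tests between durations are not independent of that choice. The difference of 1 day from 6 hours was 0.80 ± 0.38 (adjusted p = 0.153), and without 6 hours replicate 4, the mouse with 3.30 CPM, it was 1.19 with an adjusted p of 0.0488. The difference of 5 days from 1 day was 0.74 ± 0.30 (adjusted p = 0.0884).

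Hcar2, the ketone body receptor, was lower at all 6 durations than in the controls. It lies at chr5:123863570-123865499 on the minus strand, 11236 bases from Hcar1. The 5 controls had 18, 28, 14, 27 and 19 reads, a mean of 3.96 ± 0.963 CPM (SD, n = 5). The 5 mice had 6, 1, 0, 3 and 1 reads after 6 hours, and 3, 6, 2, 4 and 0 reads after 5 days. No cold mouse had more than 8 reads, and the groups did not overlap in CPM at any duration. Hcar2 fell by 2.95 ± 0.49 on the log2 scale after 6 hours (adjusted p = 4.7e-05) with a log2 fold change of −3.65 ± 0.49 after 3 days (adjusted p = 7.5e-06). After 5 days its log2 fold change was −2.62 ± 0.45 (adjusted p = 7.2e-05). Hcar2 met the filter on low counts only where the control mice, in which it was high, were part of the comparison, and with no filter its log2 fold change was −2.93 after 6 hours (adjusted p = 4.0e-08) and −2.59 after 5 days (adjusted p = 9.7e-07). Within the cold Hcar2 had too few reads for the edgeR test, and the exact permutation test between 5 days and 6 hours gave p = 0.683 (adjusted 0.807 over 16373 genes). The Hcar1 and Hcar2 changes stood beside a macrophage marker sum of 69.7 to 168 CPM at room temperature and 77.3 to 90.5 CPM after 6 hours. The sum was 129 to 291 CPM after 3 days, 90.2 to 257 CPM after 4 days and 105 to 211 CPM after 5 days. Of the macrophage markers 6 of 7 tested rose from 6 hours to 5 days, where 19.2% of all genes rose. Their part in the receptor results was not tested. Neutrophil markers summed to at most 5.88 CPM in any library, with no reads for Ly6g.

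Ffar4, the receptor for long-chain fatty acids, was higher in the cold. It lies at chr19:38097071-38114263 on the plus strand. The 5 controls held 27.8, 17.4, 14.8, 19.7 and 13.8 CPM, and after 6 hours the 5 mice held 52.6, 86.6, 127, 99.7 and 101 CPM. The groups did not overlap after 6 hours, and the means were 18.7 ± 5.58 CPM and 93.3 ± 27.0 CPM (SD, n = 5 each). The mean then stood at 56.2 ± 23.9 CPM at 1 day, 50.6 ± 14.9 CPM at 2 days and 41.1 ± 6.03 CPM at 3 days, and it was 66.5 ± 22.8 CPM at 4 days and 76.3 ± 33.5 CPM at 5 days. At 1 day replicate 4 held 15.3 CPM, within the control range, and the other 4 mice held 56.6 to 75.9 CPM. The log2 fold change against room temperature was 2.30 ± 0.25 after 6 hours, 1.14 ± 0.16 after 3 days and 2.02 ± 0.32 after 5 days, and at 1 day it was 1.59 with all mice and 1.83 without replicate 4. After 3 days the 5 mice held 45.0, 34.5, 36.5, 49.1 and 40.4 CPM, all below the lowest mouse after 6 hours. Over the 6 durations of cold, whose values were part of the choice of the set, the F test gave an adjusted p of 0.0487. That call was lost in 22 of 30 fits that left out 1 mouse (adjusted p up to 0.114) and with the filter on low counts removed (0.109). No pair of durations tested differed in Ffar4, with a change of −0.28 ± 0.33 from 6 hours to 5 days (adjusted p = 0.547).

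Ffar2, the receptor for short-chain fatty acids, lies at chr7:30818348-30823775 on the minus strand and varied widely between mice. The controls held 5.01, 6.58, 5.44, 3.12 and 1.27 CPM, and the mice after 6 hours held 1.83, 1.39, 2.24, 0.707 and 2.77 CPM. These ranges overlap, and the controls alone were spread more widely than the distance between the group means of 4.28 ± 2.10 and 1.79 ± 0.792 CPM (SD, n = 5 each). Ffar2 fell by 1.23 ± 0.40 on the log2 scale after 6 hours (adjusted p = 0.0163) and had a log2 fold change of −1.28 ± 0.41 after 4 days (adjusted p = 0.0191). Without room temperature replicate 2 these changes were −1.02 (adjusted p = 0.0569) and −1.07 (adjusted p = 0.0670), and the exact permutation test gave p = 0.0635 after 6 hours and 0.0714 after 4 days. At the other 4 durations the log2 fold change lay between −0.59 and −0.16 and did not pass the test, though at 1 day it was −0.83 without room temperature replicate 5 (adjusted p = 0.0403). Ffar2 was 1.07 ± 0.40 higher after 5 days than after 6 hours (adjusted p = 0.0368), a call lost when 1 of 5 mice was left out (6 hours replicates 1, 2 and 4 and 5 days replicates 2 and 5, adjusted p 0.0622 to 0.157). The macrophage marker sum had a median of 89.3 CPM after 6 hours and 185 CPM after 5 days, and its part in this difference was not tested.

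Gpr3, the orphan Gs-coupled receptor, had 0 reads in all 5 control libraries and 49 reads over the 30 cold libraries, of which 22 had at least 1 read. The gene lies at chr4:133209340-133212536 on the minus strand. The 5 mice had 1, 2, 3, 0 and 1 reads after 6 hours, 3, 7, 2, 2 and 2 reads after 4 days, and 4, 2, 2, 0 and 0 reads after 5 days. At 4 days every mouse had at least 2 reads, while each of the other cold groups held at least 1 mouse without a read. A floor of 3 reads over the 5 controls allows up to 0.127 CPM. The counted level of Gpr3 was 4.64-fold above this floor after 4 days and 2.41-fold above it after 6 hours. The floor allows for counting error in the controls only. The cold reads, 16 after 4 days and 7 after 6 hours, were taken as counted, so these are not lower limits of the change. Over the 5 mice Gpr3 had 16 reads after 4 days and 5 to 8 at each other duration, so that only the highest group reached the 10 reads required for the permutation test, and no p from it is given here. Without the filter on low counts edgeR gave an adjusted p of 0.0449 after 6 hours, 0.00500 after 4 days and 0.0369 after 5 days, and 0.0519 to 0.105 at the other 3 durations. With 0 reads in the controls, Gpr3 entered these fits only through the cold mice, so nothing is read from these p-values. An exon of Gpr3 overlaps Cd164l2 on the opposite strand, which held up to 24 counts in a library, and the strand setting of the counting is not given in the sources used here.

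Sucnr1, the succinate receptor at chr3:60081869-60087566 on the plus strand, was near the limit of detection in every group. The controls had 16, 6, 4, 3 and 9 reads and the mice after 4 days, the group with the lowest mean, had 1, 11, 1, 1 and 4. Group means ran from 0.634 ± 0.742 CPM after 4 days to 1.45 ± 1.00 CPM at room temperature (SD, n = 5 each), and every neighbouring pair in this order overlapped. The exact permutation test against room temperature gave p from 0.103 to 0.825. A difference was not detectable at this depth.

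The adenosine receptors moved in opposite directions. Adora1, the Gi-coupled receptor, lies at chr1:134199223-134235431 on the minus strand. The controls held 73.8, 97.6, 83.3, 100 and 110 CPM, and the mice after 6 hours held 14.1, 9.93, 12.5, 16.03 and 15.7 CPM. Every cold mouse at every duration lay below every control. The mean fell from 93.0 ± 14.4 CPM to 13.7 ± 2.52 CPM after 6 hours (SD, n = 5 each), a log2 fold change of −2.79 ± 0.14 (edgeR, adjusted p = 1.1e-12). After 1 day the 5 mice held 44.7, 21.7, 33.3, 49.0 and 26.2 CPM, all above the mice at 6 hours. Adora1 rose by 1.36 ± 0.21 on the log2 scale from 6 hours to 1 day (adjusted p = 1.7e-04) and stood 0.93 ± 0.16 above the 6 hour level after 5 days (adjusted p = 3.4e-05). The change from 1 day to 5 days was −0.44 ± 0.19 (adjusted p = 0.125), and without 1 day replicate 2 it was −0.56 with an adjusted p of 0.0276. After 5 days the mean was 25.9 ± 3.97 CPM (SD, n = 5), and the log2 fold change against room temperature was −1.85 ± 0.13 (adjusted p = 1.6e-10). An exon of Adora1 overlaps Mybph on the opposite strand, which held at most 10 counts in any library.

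Adora2a, the Gs-coupled adenosine receptor at chr10:75316877-75334784 on the plus strand, was higher in the cold. The controls held 2.89, 5.42, 3.70, 3.45 and 1.27 CPM, and the mice after 6 hours held 12.3, 10.2, 8.05, 13.4 and 10.2 CPM. These groups did not overlap, and the means were 3.34 ± 1.498 and 10.8 ± 2.10 CPM (SD, n = 5 each). Adora2a rose by 1.67 ± 0.26 on the log2 scale after 6 hours (adjusted p = 1.9e-05) and by 1.18 ± 0.27 after 1 day (adjusted p = 0.00201). It was higher by 1.08 ± 0.34 after 2 days (adjusted p = 0.0226), 1.32 ± 0.29 after 3 days (0.00124) and 1.06 ± 0.28 after 4 days (0.00499). The call at 2 days was lost in 5 of 10 fits that left out 1 mouse (room temperature replicates 1, 4 and 5 and 2 days replicates 1 and 3, adjusted p 0.0507 to 0.0729) and with library size scaling (0.0697). After 5 days the 5 mice held 10.5, 3.91, 5.23, 3.14 and 5.78 CPM, overlapping the controls, and the change of 0.76 ± 0.35 did not pass the test (adjusted p = 0.0873), but it did without room temperature replicate 2 (1.00, adjusted p = 0.0349) or without 5 days replicate 4 (0.93, adjusted p = 0.0405). From 6 hours to 5 days Adora2a fell by 0.90 ± 0.26 on the log2 scale (adjusted p = 0.00725). The steps from 6 hours to 1 day (−0.50 ± 0.19) and from 1 day to 5 days (−0.41 ± 0.27) did not pass, except that they did without 6 hours replicate 3 (adjusted p = 0.0489) and without 5 days replicate 1 (0.0440), respectively. The summed level of the 5 endothelial markers, a cell type in which Adora2a is also expressed, had a median of 261 CPM (239 to 298) at room temperature, 460 CPM (414 to 499) after 6 hours, 506 CPM (483 to 573) after 1 day and 300 CPM (221 to 372) after 5 days. After 6 hours Pecam1 and Kdr were higher (log2 fold changes of 1.08 and 0.99), Tie1 was lower (−0.61, adjusted p = 0.00815), and Cdh5 (0.03) and Emcn (0.21) did not pass the test. After 5 days 0 of the 5 were higher and Tie1 was lower (−1.02, adjusted p = 7.3e-04). None of these markers was at 0 in any group, and their part in the Adora2a result was not tested.

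Ptger3, the Gi-coupled prostaglandin E2 receptor EP3 at chr3:157566892-157645888 on the plus strand, was lowest after 6 hours. The controls held 15.03, 11.04, 11.1, 10.3 and 7.96 CPM, and the mice after 6 hours held 1.57, 2.77, 6.26, 7.55 and 4.44 CPM. The groups did not overlap, and the means were 11.1 ± 2.54 and 4.52 ± 2.45 CPM (SD, n = 5 each). Ptger3 fell by 1.30 ± 0.28 on the log2 scale after 6 hours (adjusted p = 9.4e-04), with log2 fold changes of −0.68 ± 0.19 after 1 day (0.00894) and −0.76 ± 0.20 after 2 days (0.00777). After 3 days the mean was 10.0 ± 2.35 CPM and after 4 days 9.91 ± 1.58 CPM (SD, n = 5 each), and the changes of −0.12 ± 0.20 (adjusted p = 0.676) and −0.17 ± 0.18 (0.4995) did not pass the test. After 5 days the log2 fold change was −0.67 ± 0.22 (adjusted p = 0.0186), a call lost without room temperature replicate 1 (adjusted p = 0.0682), 5 days replicate 4 (0.0524) or 5 days replicate 5 (0.0609). The F test over the 6 durations gave an adjusted p of 0.00272, which stayed under 0.05 in all 30 fits that left out 1 mouse. Of the pairs of durations tested none differed in Ptger3, and the change from 6 hours to 5 days was 0.64 ± 0.31 (adjusted p = 0.113). Without 6 hours replicate 4 it was 0.88 with an adjusted p of 0.0384.

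**Figure D2:**
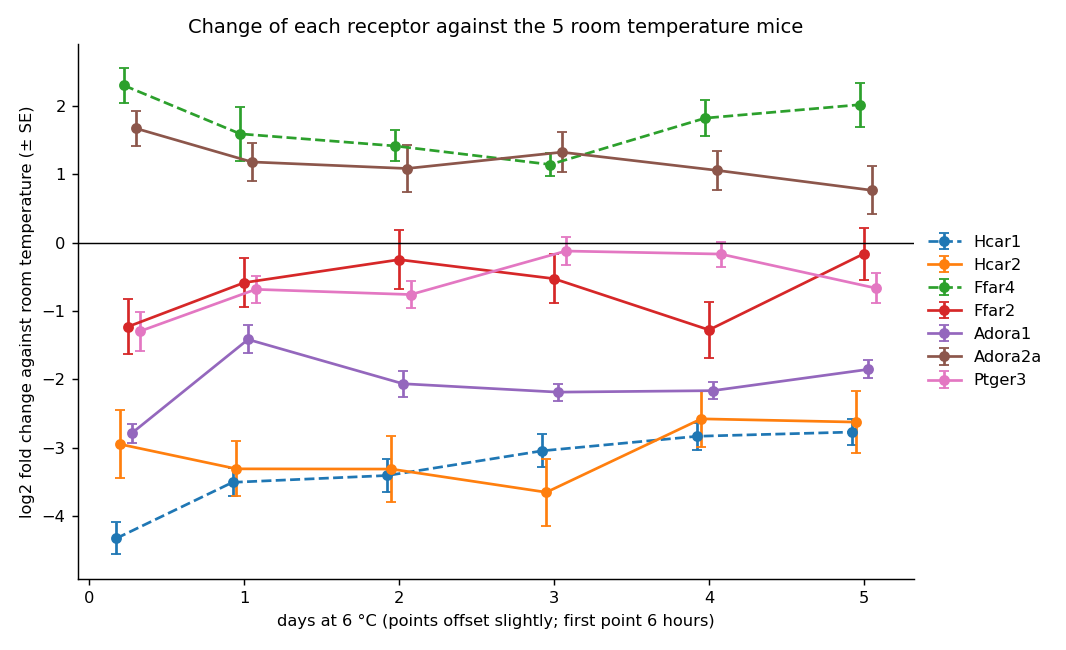
Log2 fold change of the 7 receptors with enough reads for edgeR (y axis, ± SE) against days at 6 °C (x axis, first point at 6 hours), each against the same 5 room temperature mice. Ffar4 and Adora2a lie above 0 throughout, Adora1, Hcar1 and Hcar2 lie below all other receptors, and the dashed lines are Hcar1 and Ffar4, on which the set was chosen.

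Of the 7 receptors not used to choose the set, 5 had enough reads for the edgeR test against room temperature, and Gpr3 and Sucnr1 did not. After 6 hours 1 of the 7 rose (Adora2a) and 4 fell (Hcar2, Ffar2, Adora1, Ptger3), where 21.8% of all 10593 genes tested rose and 21.1% fell. After 1 day 1 rose and 3 fell (all genes 18.9% and 17.8%), and after 2 days 1 rose and 3 fell (16.4% and 14.6%), the same 4 genes each time. After 3 days 1 rose and 2 fell (18.4% and 15.5%), after 4 days 1 rose and 3 fell (19.2% and 18.8%), and after 5 days 0 rose and 3 fell (20.2% and 18.4%). Adora2a was the receptor that rose at each of the first 5 durations, and Adora1 fell at all 6. Hcar2 also fell at all 6, but it met the filter on low counts only through the control mice, in which it was high. Because these comparisons share their controls with those that chose the set, nothing is read from the counts. The exact permutation test gave the smallest p the design allows, 0.00794, for Hcar2 and Adora1 at all 6 durations, which is 0.0414 to 0.0568 when adjusted over all genes with at least 10 reads.

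Between durations of cold, 6 of the 9 receptors had enough reads to test. Hcar1 and Ffar4 are among these 6, and their cold values were part of the choice of the set. From 6 hours to 1 day 1 rose (Adora1) and 0 fell, against 9.24% and 7.90% of all genes. From 1 day to 5 days 0 of the 6 passed the edgeR test, where 10.6% of all genes rose and 8.81% fell. At an unadjusted p below 0.05 there were 2 (Hcar1 and Adora1), and DESeq2 also called 0. From 6 hours to 5 days 3 rose (Hcar1, Ffar2, Adora1) and 1 fell (Adora2a), against 19.2% and 17.0% of all genes. The F test over the 6 durations called 4 of the 6 tested (Hcar1, Ffar4, Adora1, Ptger3), against 41.2% of all 11772 genes. Ffar2 (adjusted p = 0.0801) and Adora2a (0.0643) did not pass it, but Ffar2 did without 2 days replicate 3 (0.0312) or 5 days replicate 1 (0.0460), and Adora2a did without 2 days replicate 1 (0.0259) or 5 days replicate 1 (0.0065).

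**Figure D3:**
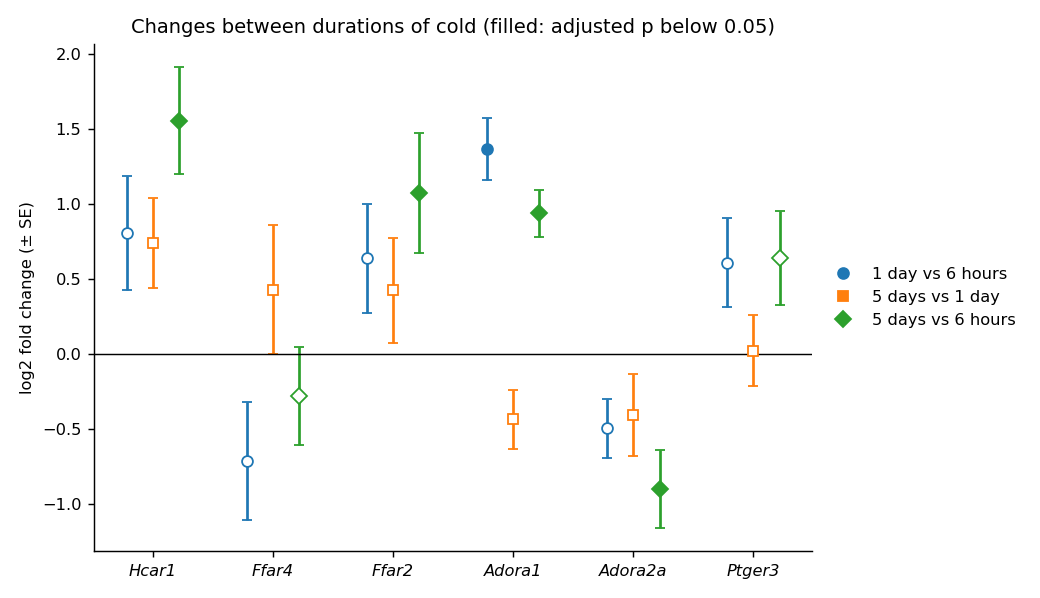
Log2 fold change (y axis, ± SE) between durations of cold for the 6 receptors with enough reads (x axis), with circles for 1 day against 6 hours, squares for 5 days against 1 day and diamonds for 5 days against 6 hours. Filled symbols passed an adjusted p of 0.05, and Adora1 is the one with a filled circle at 1.36.

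In the order of group means, room temperature stood apart from all cold groups for Hcar1, Hcar2 and Adora1 at the top and for Ffar4 at the bottom if 1 day replicate 4 is set aside. How many of all genes separate in this way was not computed, so the separation is given as description only. Among the cold groups neighbouring means overlapped for every receptor, with the exception of Adora1, where the 6 hour mice (9.93 to 16.03 CPM) lay below the 3 day mice (18.3 to 22.5 CPM). For Hcar1 the cold means ran in the order of duration, from 1.69 CPM after 6 hours through 2.92, 3.34, 4.13 and 4.73 to 4.92 CPM after 5 days.

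The genes whose log2 CPM followed each receptor most closely over the 35 libraries are given as a description, and the points share the 7 groups, so that most of the likeness is between groups. For Hcar1 they were Fam13a (Pearson r = 0.925), Sspn (0.895) and Rasl12 (0.890), out of 8885 genes compared. For Adora1 they were Coq8a (r = 0.896), Angptl2 (0.876) and again Fam13a (0.863), and for Ffar4 Zdhhc5 (r = 0.862), Ppif (0.859) and Rbm17 (0.846). For Adora2a they were Gk (r = 0.765), Dio2 (0.761) and Sdc4 (0.757), for Ptger3 Mob3b (r = 0.736), Rhbdd3 (0.734) and Dcaf15 (0.720), and for Ffar2 Cog4 (r = 0.622) and Gypc (0.584). Between the receptors, Hcar1 and Adora1 had r = 0.862 over the 35 libraries and 0.398 after removing the group means. With group means removed, Hcar1 and Fam13a had r = 0.465, and 0 of the 18 genes stayed among the 3 most alike.

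The genes that make, carry or clear the ligands were read from lists, and counts are of genes past the test against room temperature, where 21.8% of all genes rose and 21.1% fell after 6 hours and 20.2% and 18.4% after 5 days. The lactate list holds lactate dehydrogenase, the carriers of lactate and pyruvate, and their partner basigin, with 8 of 9 genes tested. After 6 hours 4 rose and 1 fell, and after 5 days 6 rose and 2 fell, with a median log2 fold change of 1.16 where that of all genes was −0.02. With library size scaling the numbers were 3 higher and 2 lower after 6 hours and 5 higher and 2 lower after 5 days, with a median of 0.92 after 5 days. Over all genes that scaling gave 1354 higher and 3397 lower of 10593 after 6 hours, and 1184 higher and 3335 lower of 10733 after 5 days. Slc16a7, a high-affinity lactate and pyruvate carrier, had a log2 fold change of −1.69 ± 0.19 after 6 hours and −3.63 ± 0.31 after 5 days (adjusted p = 1.6e-07 and 2.2e-08). Slc16a1, a lactate carrier, rose by 1.01 ± 0.13 after 6 hours (adjusted p = 5.5e-06), and Mpc2, part of the mitochondrial pyruvate carrier, rose by 1.62 ± 0.17 after 5 days (adjusted p = 4.1e-06). Of the ketone body list 1 of 5 genes tested after 6 hours and 1 of 4 after 5 days rose and 0 fell. With library size scaling 1 rose at each time, while 2 fell after 6 hours and 1 fell after 5 days. Bdh1, the enzyme that interconverts acetoacetate and beta-hydroxybutyrate, was 7.22 ± 0.32 higher on the log2 scale after 5 days (adjusted p = 1.3e-13). Its mean over both groups was 63.3 reads per library, so a change of this size leaves few reads in the controls and its size is uncertain. Bdh1 therefore met the filter on low counts through the cold mice, in which it was high, and nothing is read from its p.

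Of 8 succinate genes tested, 1 rose and 2 fell after 6 hours and 2 rose and 0 fell after 5 days, with Slc25a10, the mitochondrial dicarboxylate carrier, 0.85 ± 0.27 higher (adjusted p = 0.0197) and Suclg1, a subunit of succinyl-CoA ligase, 0.52 ± 0.10 higher (adjusted p = 3.4e-04). Of 5 adenosine genes tested, 3 rose and 2 fell after 6 hours and 4 rose and 1 fell after 5 days. With library size scaling these were 2 and 2 after 6 hours and 3 and 1 after 5 days. All genes under that scaling gave 1354 higher and 3397 lower of 10593, and 1184 and 3335 of 10733, respectively. Alpl, the tissue-nonspecific alkaline phosphatase that can form adenosine from AMP, rose by 0.85 ± 0.26 after 6 hours (adjusted p = 0.0110) and by 3.09 ± 0.18 after 5 days (adjusted p = 8.6e-12). Slc29a1, an equilibrative nucleoside carrier, was 1.36 ± 0.16 higher after 5 days (adjusted p = 1.6e-06), and Slc28a2, a concentrative one, fell by 1.17 ± 0.26 after 6 hours (adjusted p = 0.00116). Of the prostaglandin E2 genes 1 of 7 rose and 3 fell after 6 hours, and 1 of 6 rose and 1 fell after 5 days. Cbr1, a carbonyl reductase that can clear prostaglandin E2, fell by 1.76 ± 0.13 after 6 hours (adjusted p = 5.4e-10), and Abcc4, a prostaglandin exporter, fell by 0.75 ± 0.21 after 5 days (adjusted p = 0.00674).

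**Figure D4:**
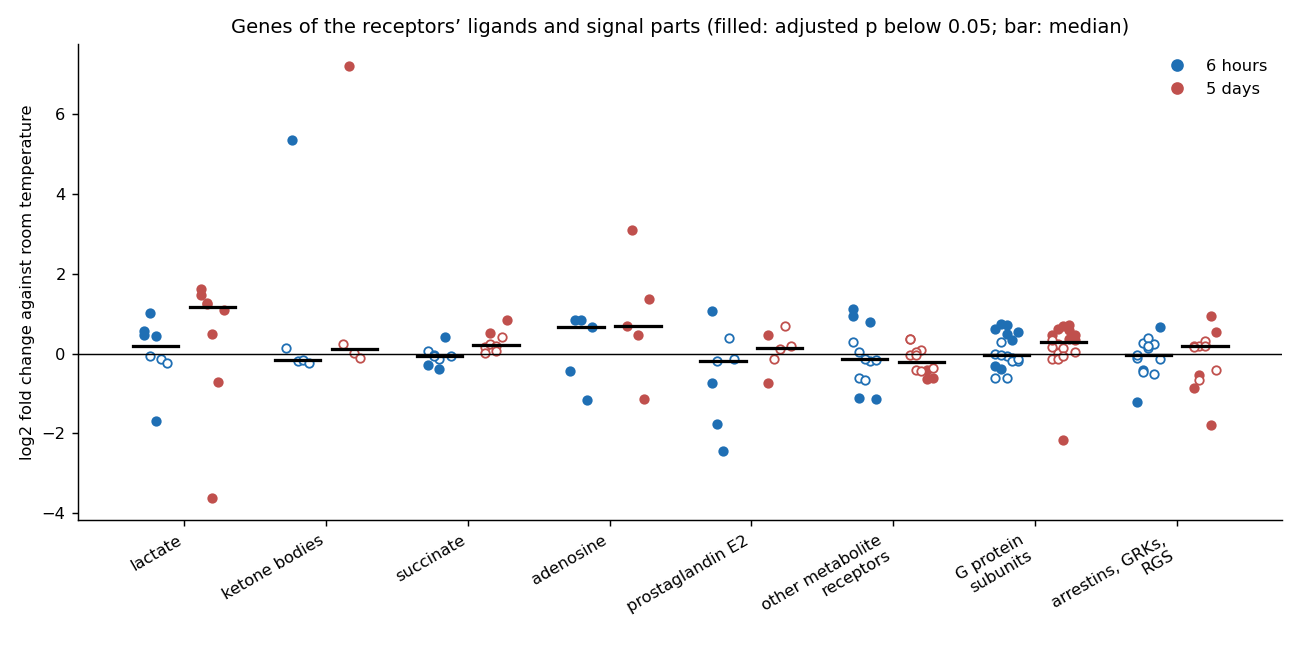
Log2 fold change against room temperature (y axis) of each gene tested in the lists for ligand supply, other metabolite receptors, G protein subunits and signal regulators (x axis), after 6 hours (blue) and 5 days (red). Filled points passed an adjusted p of 0.05 and bars are list medians. The highest median is that of the lactate list after 5 days, at 1.16. The highest point is the ketone body gene Bdh1, at 7.22 after 5 days, which had few reads in the controls.

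Among 41 other receptors for metabolites and lipid mediators, 12 had enough reads, of which 3 rose and 2 fell after 6 hours (all genes 21.8% and 21.1%) and 0 rose and 3 fell after 5 days (20.2% and 18.4%). Gpr4, a proton sensor, rose by 1.11 ± 0.19 after 6 hours (adjusted p = 6.9e-05), P2ry1, an ADP receptor, fell by 1.14 ± 0.23 (adjusted p = 4.1e-04), and Lpar6, a lysophosphatidic acid receptor, fell by 0.65 ± 0.11 after 5 days (adjusted p = 8.3e-05). Of 18 G protein subunits tested 6 rose and 2 fell after 6 hours, and 8 rose and 1 fell after 5 days. With library size scaling these were 5 and 7 after 6 hours and 3 and 2 after 5 days. Beside them, all genes under library size scaling gave 1354 higher and 3397 lower of 10593 after 6 hours. After 5 days all genes gave 1184 higher and 3335 lower of 10733. After 6 hours library size scaling gave 3 higher and 5 lower of the other receptors, 0 and 5 of the succinate genes and 1 and 4 of the prostaglandin E2 genes. After 5 days it gave 0 higher and 4 lower of the other receptors, 1 and 0 of the succinate genes, 0 and 2 of the prostaglandin E2 genes and 1 and 4 of the arrestins, kinases and regulators. Gnai1, a subunit of Gi, rose by 0.71 ± 0.14 after 5 days (adjusted p = 3.0e-04). Of 13 arrestins, receptor kinases and regulators of G protein signalling tested, 1 rose and 2 fell after 6 hours and 2 rose and 3 fell after 5 days. Arrb1, which encodes beta-arrestin 1, fell by 1.20 ± 0.25 after 6 hours (adjusted p = 7.6e-04). After 5 days Rgs2, a regulator that shortens G protein signals, fell by 1.78 ± 0.48 (adjusted p = 0.0187), and the receptor kinase gene Grk3 rose by 0.93 ± 0.11 (adjusted p = 2.4e-07).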

How the data were processed

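Total RNA from iBAT of 35 mice was made into QuantSeq 3' FWD libraries, which read the 3' end of polyadenylated transcripts. The authors aligned the reads with STAR 2.6.1d and counted them per gene with HTSeq 0.11.2, with GRCm38 named as the build, and the deposited values are raw whole-number counts, without normalization, for 1 library per mouse. A 3' kit gives about 1 read position per transcript, so counts do not grow with transcript length. The strand setting of the counting is not given in the sources used here.

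Groups followed the sample labels, and replicate numbers were treated as names of different mice. Each pair of groups was fitted alone with edgeR 4.0.16 in R 4.3.3 (TMM factors, filterByExpr, robust quasi-likelihood test), as was an F test over the 30 cold libraries. P-values were adjusted by Benjamini-Hochberg over all genes tested, with a threshold of 0.05, and SE is the log2 fold change divided by the square root of F. For log2 CPM (prior count 2), exact permutation tests (two-sided) ran over all 252 splits of 5 against 5 mice, adjusted over genes with at least 10 counts. Python 3.11.15 was used with numpy 2.4.6, pandas 2.3.3 and scipy 1.17.1. Alternatives were DESeq2 1.42.0, RLE and library size scaling, TMM without mitochondrial genes and Gm42418, no filter, all 7 groups in one fit, a block on replicate numbers and omission of each mouse in turn. In counts simulated for 6 hours against room temperature, edgeR recovered 96 of 96 genes changed by 2 on the log2 scale and 70 of 96 changed by 1, with 6 false calls among 11010 genes. All genes were simulated with the same dispersion of 0.05, and only genes with an expected mean of at least 10 counts were changed. These rates therefore do not carry over to receptors with fewer reads or a wider spread between mice.

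The receptors, the gene lists and the rule for other genes were chosen with earlier results of these data known. Genes outside the set are the 3 most alike in pattern to each receptor with a mean of at least 10 counts (from genes with at least 20), and those among the 2 largest changes of a list after 6 hours or 5 days (mean of at least 20 counts). A gene that this rule names for Ffar2 is not reported here. Coordinates are from GENCODE on GRCm38 and promoters from RefSeq on GRCm38.p6. 267 identifiers had no gene symbol, and 1 gene of the prostaglandin E2 list was not matched.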

Additional observations from a re-analysis of the deposited data

Results flagged for a closer look

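In 4 of 62 groups of 5 mice that could be examined, 1 mouse stood apart from the other 4 by Dixon's criterion, which chance meets in about 1 group in 20. Hcar1 was 3.30 CPM (14 reads) in 6 hours replicate 4 and 1.12 to 1.57 CPM in the other 4 mice. Ffar2 was 4.08 CPM (16 reads) in 1 day replicate 4 and 2.30 to 2.79 CPM in the others. Gpr3 was 1.21 CPM (7 reads) in 4 days replicate 2 and 0.345 to 0.542 CPM in the others. Adora2a was 12.6 CPM (49 reads) in 3 days replicate 5 and 7.13 to 7.70 CPM in the others.

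The difference from room temperature was not the same at all durations for 4 receptors, by a direct edgeR test of 1 cold group against another. The pairs tested were 1 day against 6 hours, 5 days against 1 day and 5 days against 6 hours. Adora1 was 1.36 higher on the log2 scale after 1 day than after 6 hours and 0.93 higher after 5 days than after 6 hours. Hcar1 was 1.55 higher and Ffar2 1.07 higher after 5 days than after 6 hours, and Adora2a changed by −0.90 between the same groups. For Hcar1 these cold values were part of the choice of the set. The Ffar2 difference did not pass the threshold with DESeq2 (adjusted p = 0.0693) or with library size scaling (adjusted p = 0.0523). Of the 4 receptors, the F test over all durations of cold called Hcar1 and Adora1 but not Ffar2 (adjusted p = 0.0801) or Adora2a (0.0643). It also called Ptger3 (0.00272) and Ffar4 (0.0487), for which no tested pair differed.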

How the results depend on the processing

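Over the alternatives that kept all mice, 414 of 420 log2 fold changes of receptors were unchanged, 3 fell short of the threshold, 3 came to pass it and 0 reversed. Unchanged means the same direction and the same side of the threshold. For Hcar1 and Ffar4 against room temperature, which had no test, it means the same direction and a shift smaller than the SD within groups. Leaving out each mouse in turn left 568 of 600 unchanged. In these fits 3 changes that had not passed the test crossed 0. These changes were Ptger3 after 3 days (−0.22 to 0.0075), Ffar2 after 5 days (−0.45 to 0.048) and Ptger3 between 1 day and 5 days (−0.076 to 0.16). The number of receptors called after 5 days against room temperature was 3, and 5 without the filter on low counts. Adora2a (adjusted p = 0.0408) was added there, and so was Gpr3, which entered only through its cold reads. Between 1 day and 5 days the number called was 0, and 1 (Adora1, adjusted p = 0.0310) without that filter. It ranged over mice left out from 1 to 2 between 6 hours and 1 day and from 0 to 1 between 1 day and 5 days. Leaving out a mouse gave 4 to 5 calls after 6 hours and 2 to 4 after 5 days. Fitting all 7 groups together also called Adora2a after 5 days (adjusted p = 0.0417). In the F test over durations, Ffar4 missed the threshold with RLE factors (0.0513), TMM without mitochondrial genes and Gm42418 (0.0513), no filter (0.109) and a replicate block (0.0808), while Adora2a passed it with no filter (0.0341) and the replicate block (0.0309). The cause of these changes was not tested. Exact permutation tests called 17 receptor comparisons, and 17 to 19 under other settings. This count includes Gpr3 after 4 days, which had enough reads for the test only through its highest group. It also includes Hcar2, whose reads lay mostly in the controls (106 in all, against 7 to 18 in each cold group). The share of all genes called by the same test is not given here, so nothing is read from the count. Between 1 day and 5 days the mean difference in log2 CPM of Gpr3, at exact permutation p = 1, was −0.0015 and crossed 0 with library size scaling (0.0084). Of the 18 genes most alike to a receptor, 5 were also among the 3 highest by Spearman's rho.

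The replicate block, which takes the same number as a pair, raised the count of called genes from 4539 to 4616 after 6 hours and lowered it in each of the other 9 comparisons, by the largest share from 1745 to 1508 between 6 hours and 1 day. Replicate numbers named different mice, and libraries that shared a number had a median correlation of −0.0061 in their deviations from group means, with 4 of 35 libraries most alike to their own number. The block changed no other call of a receptor. Depth limits Gpr3, Sucnr1 and, in the cold, Hcar2, which had a few reads per library.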
